A study of Mus musculus with 8 samples.

Results

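The cytosolic ribosomal protein genes encode the protein part of the ribosomes that translate messenger RNA in the cytoplasm. Rows were taken by gene name, as Rpl or Rps followed by a number, together with Rplp0, Rplp1, Rplp2 and Rpsa, and 88 of the 11783 genes listed in the deposited table met the rule. The rule used no measured value. Of these 88 genes, 52 belong by name to the large subunit and 36 to the small subunit. They comprise 77 core genes (46 large, 31 small), 5 paralogs annotated as protein-coding (Rpl7l1, Rpl10l, Rpl22l1, Rpl36al and Rps27l) and 6 copies annotated as processed pseudogenes in GENCODE M21 (Rpl6l, Rpl32l, Rps3a2, Rps3a3, Rps4l and Rps12l1). They lie on 19 chromosomes, with 4 on the X chromosome.

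RNA-seq was performed on granulosa cells, the somatic cells that surround the oocyte, dissociated from ovaries of C57BL/6 mice. PND4 (postnatal day 4) and PND1 (postnatal day 1) are each represented by 4 libraries, and the animals carry no stated mutation or treatment. The study is concerned with the activation of primordial follicles, which begins around this age. Whether each library is a separate animal, a litter or a pool is not in the labels, and p-values here therefore refer to the spread among libraries, which may be technical.

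A eukaryotic ribosome has a small subunit, which reads the messenger RNA, and a large subunit, which forms peptide bonds. Most of its proteins are present in about equal number. Many of the messenger RNAs of ribosomal proteins begin with a short run of pyrimidines, the terminal oligopyrimidine (TOP) motif, through which mTOR signalling controls their translation. These genes have also left many processed pseudogenes (retrocopies) in mammalian genomes. In granulosa cells, mTOR signalling is known for its part in the activation of primordial follicles in the mouse.

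Values are FPKM, a fragment count scaled to transcript length and to sequencing depth. The listed genes summed to between 443333 and 505035 FPKM in a library, and a value of exactly 0 stood for 222 to 1234 of them. The number of reads behind each value is not known. All 17 granulosa marker genes of the list used were listed, with summed levels of 1305 ± 171 FPKM in PND4 libraries and 1341 ± 215 FPKM in PND1 libraries (SD, n = 4 each). Foxl2, the transcription factor that defines the lineage, had 17.5 ± 5.85 FPKM in PND4 and 15.9 ± 3.87 FPKM in PND1 libraries. The highest granulosa markers were the keratins Krt18, Krt8 and Krt19, and most of the granulosa sum came from them. They averaged 487, 355 and 126 FPKM in PND4 libraries and 500, 390 and 120 FPKM in PND1 libraries. Smooth muscle markers, 5 of 6 listed (all but Myh11), summed to 970 ± 267 FPKM in PND4 and 1060 ± 326 FPKM in PND1 libraries. Nearly all of this sum came from Acta2 and Tagln. The other listed markers, Des, Cnn1 and Actg2, averaged 5.10, 2.61 and 2.02 FPKM in PND4 libraries. In PND1 libraries they averaged 3.95, 2.03 and 6.58 FPKM.

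Ribosomal protein genes were among the most abundant transcripts of these cells. Their median level, as the mean of 8 libraries, was 194 FPKM, against 9.64 FPKM over all genes kept for testing. By that mean, 20 of the 88 ranked among the 100 highest genes in the table and 74 among the 1000 highest. All 88 passed the filter for testing, which asked for at least 1 FPKM in at least 4 libraries.

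In the large subunit the highest level belonged to Rplp1, a P protein of the lateral stalk that recruits elongation factors to the ribosome. Rplp1 (chr9:61913284-61914542, minus strand, GRCm38) averaged 1371 ± 161 FPKM in PND4 libraries and 1264 ± 166 FPKM in PND1 libraries. Rplp0, the base of the same stalk, averaged 977 ± 75.7 FPKM in PND4 and 895 ± 36.3 FPKM in PND1 libraries. Rplp2, the partner of Rplp1 in the stalk, was listed far lower than both, at 106 ± 5.45 FPKM in PND4 and 102 ± 20.3 FPKM in PND1 libraries. Next in order were Rpl8, a protein close to the peptidyl transferase centre, with a mean of 881 FPKM over the 8 libraries, and Rpl4, which lines the exit tunnel, with 751 FPKM. Rpl19 followed with 741 FPKM and Rpl13 with 678 FPKM.

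In the small subunit Rps2, which sits at the entry of the mRNA channel, was highest, at 1072 ± 65.6 FPKM in PND4 and 1110.3 ± 59.7 FPKM in PND1 libraries. Rpsa, also known as the laminin receptor precursor, averaged 782 ± 56.9 FPKM in PND4 and 743 ± 27.5 FPKM in PND1 libraries. High levels were also listed for Rps4x, encoded on the X chromosome, with a mean of 755 FPKM over the 8 libraries, Rps15 with 663 FPKM, and Rps6, the substrate of the S6 kinases, with 627 FPKM. Neighbours lay within the spread of their libraries: Rpsa and Rps4x, for example, overlapped.

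At the low end of the core genes were Rps15a, with 35.3 ± 3.09 FPKM in PND4 and 31.6 ± 2.85 FPKM in PND1 libraries, and Rps20, with 36.7 ± 9.005 FPKM in PND4 and 31.8 ± 6.93 FPKM in PND1 libraries. The core genes spanned a 39.4-fold range of mean level although most of their proteins are used in about equal number. Of the 77, 16 exceeded 500 FPKM and 4 were under 50 FPKM. Lowest of all 88 were the paralog Rpl10l (2.17 FPKM over the 8 libraries) and the pseudogene-type copies Rpl32l (8.25 FPKM) and Rps3a3 (17.1 FPKM). Rpl6l (35.4 FPKM), Rpl36al (47.3 FPKM) and Rps4l (38.4 FPKM) completed the low end of both subunits.

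**Figure D1:**
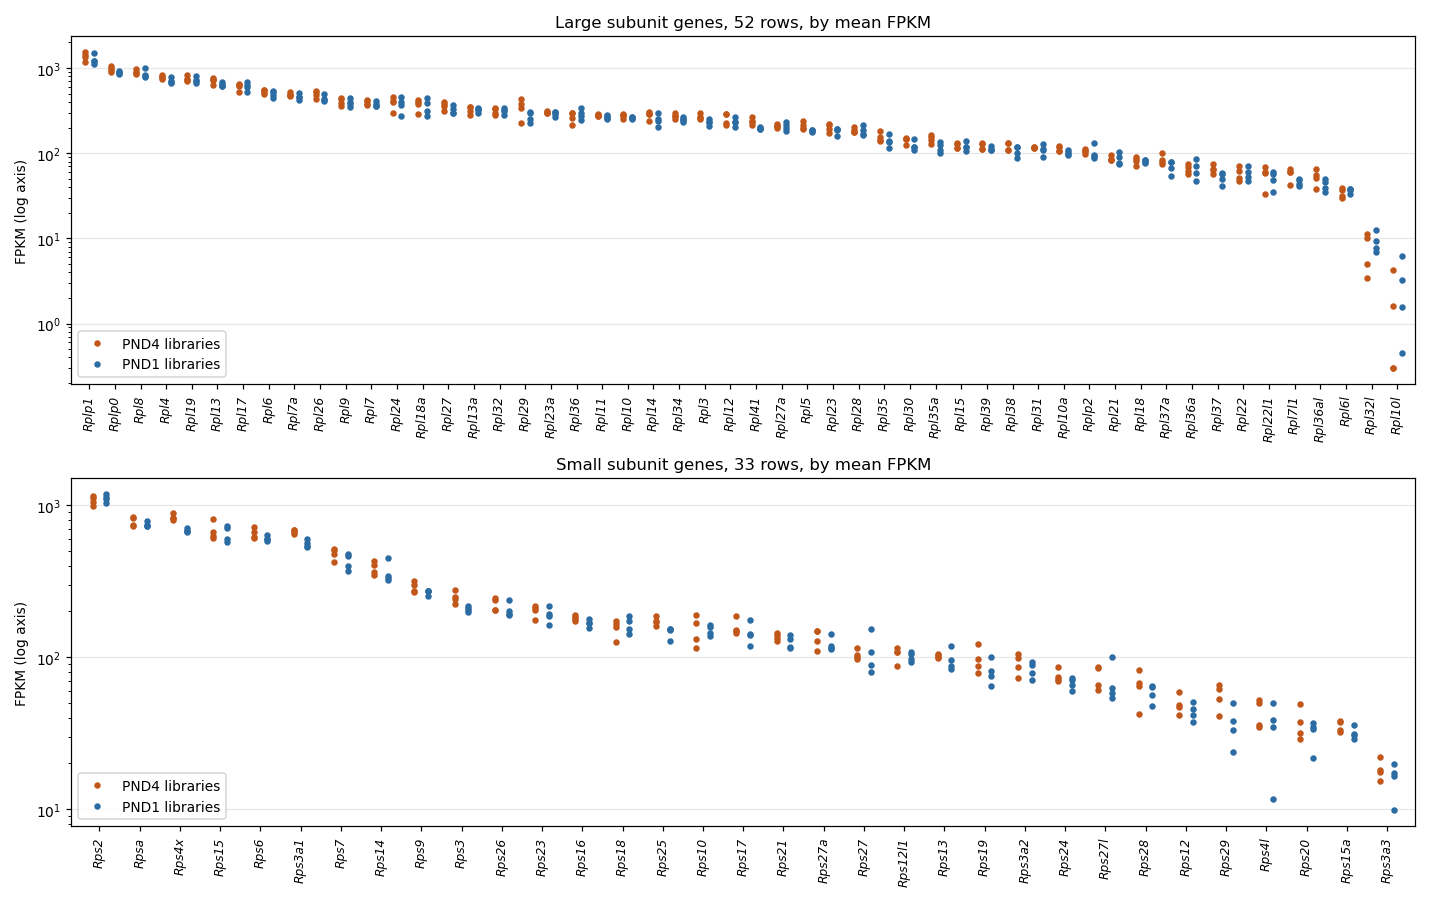
FPKM on a log axis for 85 of the 88 ribosomal protein genes in the 4 PND4 libraries (orange) and the 4 PND1 libraries (blue), with large subunit genes above and small subunit genes below, ordered by mean level. Values under 0.3 FPKM are drawn at 0.3, which applies to Rpl10l, and the libraries of a gene lie close together compared with the span between Rplp1 at 1317 FPKM and the lowest genes.

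Levels went with coding length. Across the 77 core genes, Spearman's rank correlation between coding length (78 to 1260 bases) and mean FPKM was 0.63, a description across genes, which are not independent replicates and whose FPKM values are themselves divided by length. The 9 core genes with a coding length under 300 bases had a median of 105.6 FPKM, and the other 68 had a median of 267 FPKM. The sources used here do not state how fragments of very short transcripts were counted, and the part of this in the low levels of short genes was not tested.

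Large subunit genes were listed at higher levels in sum and in median than small subunit genes. The sums cover unequal numbers of genes, 52 of the large and 36 of the small subunit. The median core large subunit gene had 263 FPKM over the 8 libraries and the median core small subunit gene 174 FPKM. Lower quartiles of these core genes were 124 FPKM (large) and 102 FPKM (small). Upper quartiles had the reverse order, 386 FPKM (large) and 527 FPKM (small). The ratio of summed FPKM, large over small, was 1.53, 1.496, 1.55 and 1.51 in the PND4 libraries and 1.56, 1.56, 1.499 and 1.54 in the PND1 libraries. These ratios overlapped between the ages, with means of 1.52 ± 0.0255 at PND4 and 1.54 ± 0.0286 at PND1 (SD, n = 4 each), and they varied by little more than the second decimal within an age. The age difference in this ratio kept its sign whichever library was left out, between -0.033 and -0.011, and stayed within the spread of the libraries.

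Paralog use was examined in pairs of a core gene and a gene related to it by name. Whether the related gene can stand in for the core gene was not tested. A paralog's share is its FPKM as a percentage of the summed FPKM of the pair. Of 8 planned pairs 6 could be formed, since Rpl39l and Rpl3l have no row in the table used here. Ages were compared for each share by an exact two-sided permutation test over the 70 splits of 8 libraries, for which the smallest p is 0.0286, with Benjamini-Hochberg adjustment over the 6 pairs. No share passed the threshold of 0.05. With so few splits, a pair separated alone could not have passed it after adjustment. The outcome therefore does not show that paralog use was unchanged.

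In 3 pairs the paralog held between 29.1% and 54.3% of the pair in every library. Rpl22l1, which Rpl22 is known to repress in mouse cells, took 53.9%, 41.0%, 53.1% and 45.4% of the pair in PND4 libraries and 46.0%, 54.3%, 47.8% and 36.8% in PND1 libraries. The ages overlapped across most of their range, with means of 48.4% ± 6.23 at PND4 and 46.2% ± 7.26 at PND1 (exact permutation p = 0.686, adjusted p = 0.823). Rps27l, a target gene of p53 in mouse and human cells, took 47.3%, 44.8%, 36.1% and 37.9% of its pair with Rps27 in PND4 libraries and 39.5%, 42.2%, 36.7% and 37.5% in PND1 libraries. The highest shares of Rps27l belonged to PND4 replicates 1 and 2, but the lowest was also a PND4 library (exact permutation p = 0.429, adjusted p = 0.643). Rpl36al, an autosomal relative of the X-linked Rpl36a, took 44.01% ± 4.95 of its pair at PND4 and 39.7% ± 7.67 at PND1, again with overlapping libraries (exact permutation p = 0.429, adjusted p = 0.643). The coding sequences of Rpl36a and Rpl36al are 87.9% identical. Pseudogene rows matched to them, described below, held 52.9% of gene plus copies for Rpl36a and 51.1% for Rpl36al. The shares given here leave those rows out.

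The coding sequences of Rps27 and Rps27l are shown because this pair has equal length in both genes, 255 bases. They let the degree of divergence be seen in a pair where the paralog share averaged 40.2% over the 8 libraries. They are identical at 194 positions (76.1%), and the 61 positions that differ are in capitals. Both are joined across the exons of the GENCODE M21 transcript on GRCm38, Rps27 from the minus strand at chr3:90212522-90213651 and Rps27l from the plus strand at chr9:66946086-66949516.
Rps27: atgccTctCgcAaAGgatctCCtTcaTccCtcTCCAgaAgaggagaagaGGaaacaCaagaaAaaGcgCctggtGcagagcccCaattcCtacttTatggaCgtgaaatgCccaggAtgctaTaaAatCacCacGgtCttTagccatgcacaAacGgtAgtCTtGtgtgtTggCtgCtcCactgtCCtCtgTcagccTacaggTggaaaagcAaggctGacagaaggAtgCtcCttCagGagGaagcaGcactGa
Rps27l: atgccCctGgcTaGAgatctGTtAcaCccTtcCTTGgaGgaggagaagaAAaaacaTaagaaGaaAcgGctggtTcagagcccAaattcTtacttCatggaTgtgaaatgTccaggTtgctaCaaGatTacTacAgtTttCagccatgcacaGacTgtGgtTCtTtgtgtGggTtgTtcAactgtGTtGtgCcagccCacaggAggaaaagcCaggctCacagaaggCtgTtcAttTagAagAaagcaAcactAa

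The other 3 pairs were more uneven. Rpl7l1, a relative of Rpl7 with 54.1% identity of coding sequence, took 13.9%, 13.6%, 9.33% and 13.5% of its pair in PND4 libraries and 9.56%, 9.79%, 12.3% and 11.8% in PND1 libraries. All PND4 libraries but replicate 3 lay above every PND1 library (exact permutation p = 0.229, adjusted p = 0.643). Rps4l, annotated as a transcribed processed pseudogene on chromosome 6, took 4.92% ± 0.989 of its pair with Rps4x at PND4 and 4.70% ± 2.19 at PND1 (exact permutation p = 0.886, adjusted p = 0.886). Rpl10l, known in mouse for standing in for the X-linked Rpl10 during male meiosis, was listed at low values. It had 0, 0.0494, 4.27 and 1.62 FPKM in PND4 libraries and 0.446, 1.58, 6.19 and 3.25 FPKM in PND1 libraries, at most 2.24% of the pair in any library (exact permutation p = 0.400, adjusted p = 0.643). An exact 0 in a table of FPKM can be a failed estimate.

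**Figure D2:**
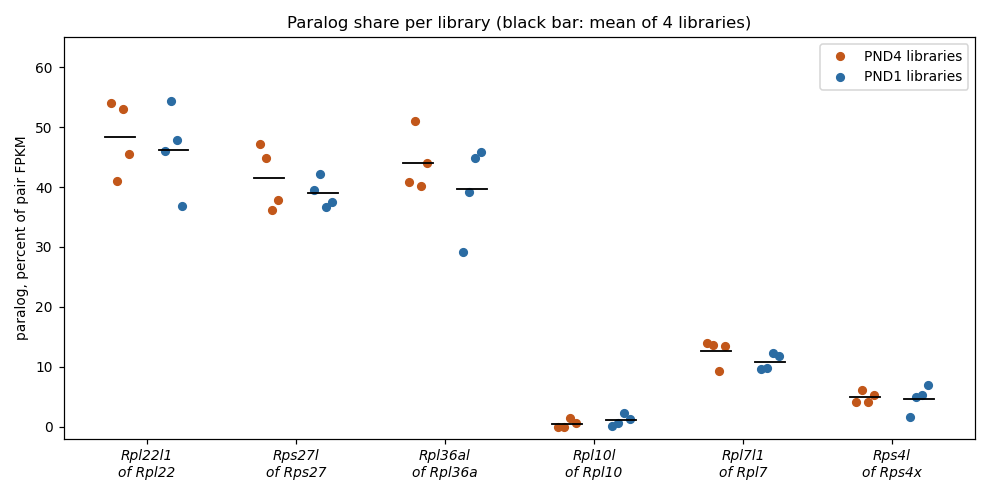
Share of each paralog in the summed FPKM of its pair, in percent, for the 4 PND4 libraries (orange, left) and the 4 PND1 libraries (blue, right), with bars at the mean of 4 libraries. The shares of Rpl22l1, Rps27l and Rpl36al lie between 29.1% and 54.3%, the other 3 at or under 13.9%, and the ages overlap in every pair.

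Much of the signal assigned to ribosomal protein sequences stood on rows of pseudogenes. Of 970 rows annotated as pseudogenes, 336 matched the transcript of a ribosomal protein gene over at least 80% of their length at 90% identity or more, to 75 genes in all, Fau among them. Their median identity was 98.6%, and 26 were identical over the match. Of the 336, 5 are themselves among the 88 genes (Rpl6l, Rpl32l, Rps3a2, Rps3a3 and Rps12l1). Summed over these rows the level was 13460.4 ± 735 FPKM in PND4 libraries and 12652 ± 1057 FPKM in PND1 libraries. As a share of ribosomal protein genes and copies together, they took 34.5% ± 0.858 at PND4 and 34.8% ± 2.01 at PND1, with overlapping libraries. FPKM is divided by length, so sums over rows of unlike length are not shares of reads. Reads of a gene and of a near-identical copy cannot be told apart with certainty. The sources used here do not state how such reads were assigned, and levels of the genes described here are uncertain to that extent.

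At least 1 matched copy was listed for 71 of the 77 core genes, and in 22 of them the copies exceeded the gene in FPKM. Those with no copy listed included Rpl4, Rpl37, Rplp2, Rps15 and Rps21. The largest shares on copies belonged to Rpl21 (87.7% of gene plus copies, over 23 copies), Rps12 (86.1%), Rps29 (84.1%) and Rpl15 (81.7%). Rps2 had 747 FPKM on 19 copies beside its own row. Adding the copies to their genes left the core genes spread over a 40.1-fold range, against 39.4-fold without them, while the SD of log2 mean FPKM across the core genes was 1.07 with copies and 1.26 without. The rank correlation with coding length was 0.59 with copies added.

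**Figure D3:**
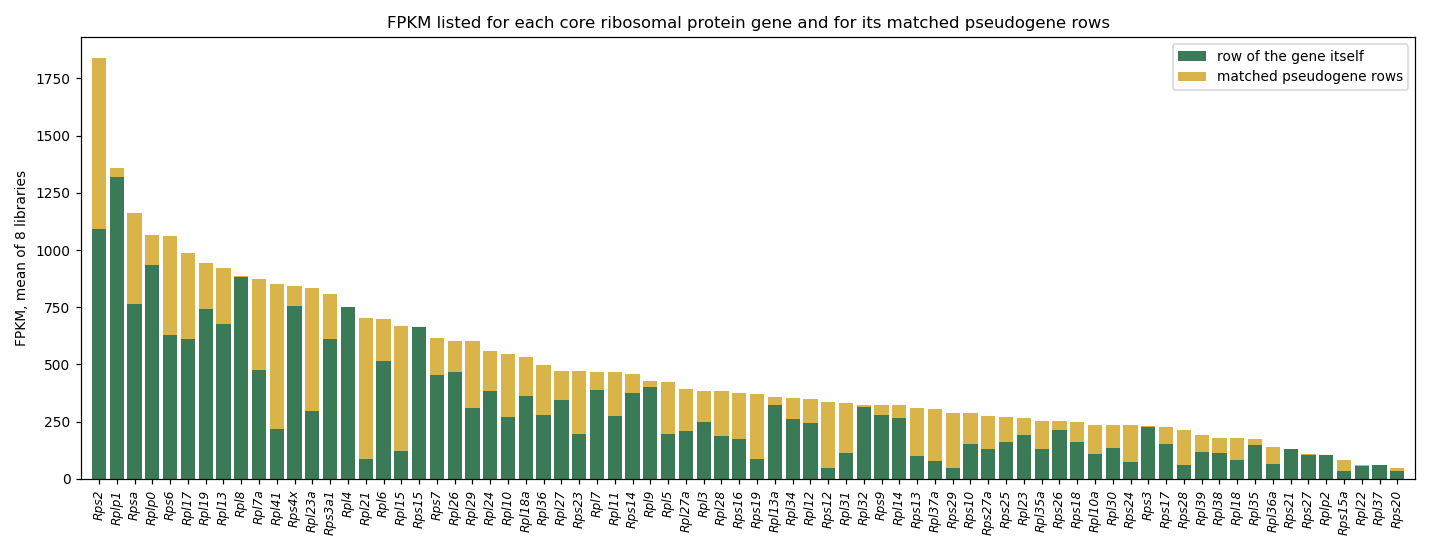
FPKM, mean of 8 libraries, listed for 74 of the 77 core ribosomal protein genes, each on its own row (green) and on the pseudogene rows matched to it (yellow, stacked), ordered by the sum. Copies exceed the gene in 22 cases, among them Rpl21, Rpl41, Rps12 and Rps29, and are missing for 5 of the genes drawn.

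The case of Rpl41 shows how far this goes. Rpl41 encodes the shortest ribosomal protein, with a coding sequence of 78 bases, and lies at chr10:128548114-128549305 on the minus strand of GRCm38. The pseudogene Gm10180, at chr9:25101404-25101481 on the minus strand, holds the same 78 bases without a difference, and so no capitals are marked in the sequences below. Gm10180 averaged 519 FPKM over the 8 libraries, against 219 FPKM on the row of Rpl41 itself. FPKM is divided by length, and the row of Gm10180 spans only those 78 bases, so the values do not compare numbers of reads.
Rpl41: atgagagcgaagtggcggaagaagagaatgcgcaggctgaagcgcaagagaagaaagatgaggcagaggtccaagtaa
Gm10180: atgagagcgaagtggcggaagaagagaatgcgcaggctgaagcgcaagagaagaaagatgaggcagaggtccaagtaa

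Rps29, a zinc-binding protein of the small subunit, has a coding sequence of 171 bases and lies at chr12:69157722-69159186 on the minus strand of GRCm38. Its copy Gm14303, at chr2:172509521-172509691 on the minus strand, carries all 171 bases unchanged and averaged 224 FPKM, against 45.7 FPKM for Rps29. The row of Gm14303 spans only those 171 bases, so here too the values do not compare numbers of reads.

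Promoter sequences from RefSeq (GRCm38.p6), which run from 250 bases before to 50 bases after the annotated start, were matched for 63 of the 88 genes, and a gene with several starts counts as holding a motif if any of its windows does. A pyrimidine start was searched on the strand of the gene as any of 4 motifs, which can overlap each other, within 20 bases either side of the start. A match can lie before or after the start, so such a transcript need not begin with the motif. Any of them was present in 24 of the 63 (38.1%), against 8.58% of 27025 genes. The motif CTTTTC was held by 7.94% of the 63, against 1.68% of all genes, the motif CTTTCC by 15.9%, against 2.30%, the motif CTTCCT by 14.3%, against 3.64%, and the motif CTCTTT by 14.3%, against 1.81%. The ETS-type motif CCGGAAG, on either strand of the whole window, was present in 39.7%, against 9.93% of all genes, AAGATGG, the core of the YY1 motif, in 15.9%, against 7.28%, and TATAAA in 12.7%, against 15.7%. These matches are descriptions of letters and not of factor binding.

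Windows of 30 bases around 6 starts are shown, 5 with a pyrimidine start and that of Rps4x, a gene described below, with none. They were chosen after the motifs and values had been seen. In each the annotated start follows the leading 15 bases, and capitals mark the searched motifs. The windows are Rps6 at chr4:86857353-86857382 (minus strand), Rps10 at chr17:27635230-27635259 (minus), Rpl18 at chr7:45718056-45718085 (plus), Rpl28 at chr7:4792950-4792979 (plus), Rpl35a at chr16:33056467-33056496 (plus) and Rps4x at chrX:102189377-102189406 (minus), all on GRCm38.
Rps6: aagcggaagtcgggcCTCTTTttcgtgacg
Rps10: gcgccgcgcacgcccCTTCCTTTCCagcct
Rpl18: tgcgtctcgcaggccgCTCTTTCCccgccc
Rpl28: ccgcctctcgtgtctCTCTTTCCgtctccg
Rpl35a: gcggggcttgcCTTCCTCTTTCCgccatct
Rps4x: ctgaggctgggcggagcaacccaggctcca

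The 24 genes with a pyrimidine start had a median level of 139 FPKM and the 39 without had 219 FPKM. Their age differences had medians of 0.11 with the motif and 0.12 without on the log2(FPKM + 1) scale, and 21 of 24 and 35 of 39 were above 0. None of them was called. Other runs of pyrimidines were not searched, so the 39 genes are not shown to lack a TOP motif.

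No ribosomal protein gene passed the test between the ages. Differences were taken as PND4 minus PND1 on the log2(FPKM + 1) scale, which understates the change of low genes, and fitted with limma across 10756 genes with Benjamini-Hochberg adjustment. At an adjusted p under 0.05, 0 of the 88 were called, against 0.0093% of all genes tested (1 gene, the antisense RNA Gm16272, named after its value was seen). The smallest adjusted p among the 88 was 0.740. By the authors' deposited table, no gene of 11783 (0%) had a q-value under 0.05, the lowest q-value among the 88 was 0.440, and 8 of the 88 had a p-value under 0.05, against 6.55% of all genes in it.

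Below that threshold the differences leaned towards higher levels at PND4. Of the 88, 78 had a difference above 0, against 60.3% of all genes, and the median difference was 0.12, against 0.078 over all genes. With libraries scaled by median-of-ratios factors, 58 of the 88 were above 0, against 51.2% of all genes, and the medians were 0.038 for the ribosomal protein genes and 0.0086 for all genes. At an unadjusted p under 0.05, 9 of the 88 were higher at PND4, against 4.06% of all genes, and 0 were lower, against 1.84%. With the median-of-ratios scaling 1 of the 88 was higher at an unadjusted p under 0.05, against 2.24% of all genes. Without PND4 replicate 1 the median of the ribosomal protein genes, 0.097, lay below that of all genes, 0.14, and without PND1 replicate 3 both were 0.10. In bulk RNA, fewer cells of a type and less RNA per cell cannot be told apart.

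**Figure D4:**
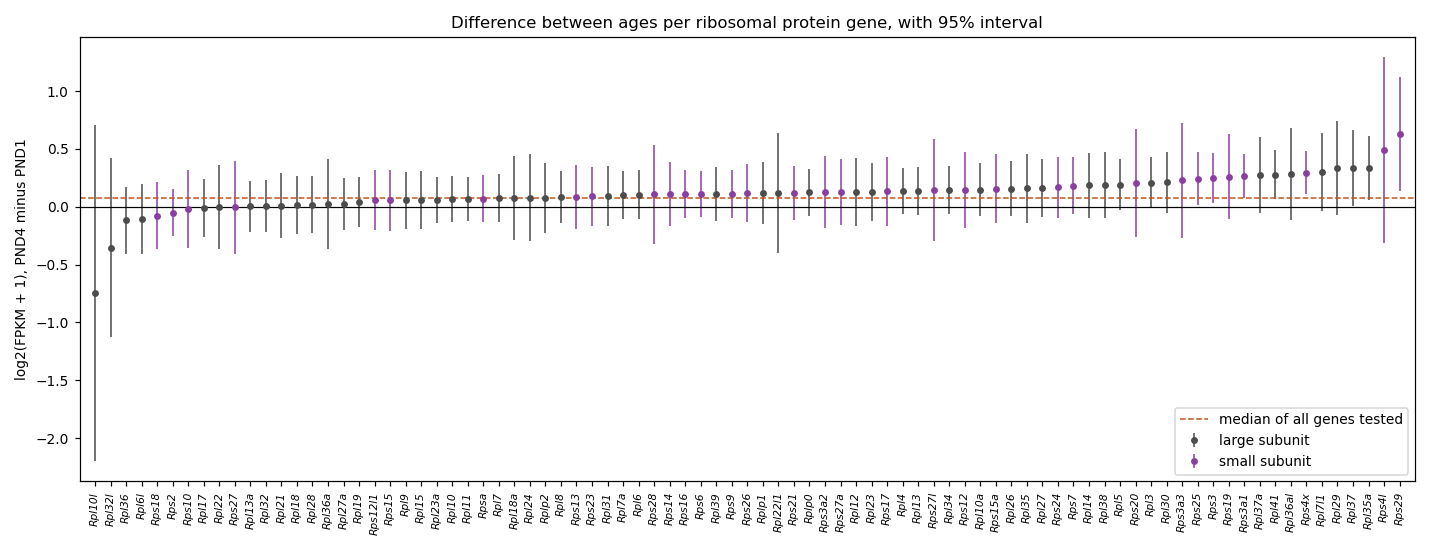
Difference between ages, PND4 minus PND1 in log2(FPKM + 1), for 85 of the 88 genes, each with its 95% interval from limma, ordered by size and coloured by subunit. The dashed line is the median of all genes tested, 0.078; 75 of the 85 points lie above 0, and no gene passed the adjusted threshold.

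The small subunit contributed 6 of the 9 genes with an unadjusted p under 0.05 and the large subunit 3. Median differences were 0.12 in the small and 0.10 in the large subunit, with 32 of 36 and 46 of 52 genes above 0. The difference between the subunits was not tested. Of the 88, 7 had all 4 PND4 libraries above all 4 PND1 libraries, among them Rps3, Rps3a1, Rps4x, Rps25, Rpl5 and Rpl41, against 3.16% of all genes, and 0 had all of them below, against 1.08%.

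Rps4x, the X-linked small subunit protein S4 at chrX:102184941-102189394 on the minus strand, had the smallest p. It had 820.2, 799.6, 819 and 889 FPKM in PND4 libraries and 675, 664, 704 and 671 FPKM in PND1 libraries. Every PND4 library lay above every PND1 library by a margin larger than the range within PND1. The difference was 0.29, with a 95% interval from 0.11 to 0.48 (limma, unadjusted p = 0.00521, adjusted p = 0.740). Its copies held 10.2% of gene plus copies, and the difference was 0.29 with the copies added.

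Rps3a1, a small subunit protein at the exit side of the mRNA channel, had 682, 641, 667 and 684 FPKM in PND4 libraries and 598, 527, 539 and 561 FPKM in PND1 libraries. The difference was 0.27, with an interval from 0.076 to 0.46 (limma, unadjusted p = 0.0105, adjusted p = 0.740). The ages did not overlap. Its copy Rps3a2, which shares nearly all of its sequence, overlapped between the ages, with 90.4 ± 14.1 FPKM in PND4 and 82.5 ± 9.73 FPKM in PND1 libraries.

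Rpl41 on its own row had 270.0, 242, 217 and 234 FPKM in PND4 libraries and 201, 195, 202 and 194 FPKM in PND1 libraries. The PND1 libraries were tightly grouped and all lay lower. The difference was 0.28, with an interval from 0.064 to 0.49 (limma, unadjusted p = 0.0154, adjusted p = 0.75). Its identical copy Gm10180 had 577, 386, 549.9 and 435 FPKM in PND4 libraries and 692, 593, 553 and 365 FPKM in PND1 libraries, without separation of the ages. With its 3 copies added, the difference of Rpl41 was -0.047 (limma, adjusted p = 0.971), so its direction depended on which rows were counted. That sum adds FPKM of rows of unlike length.

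The largest difference above 0 among the 88 belonged to Rps29, which was picked out after its values were seen. Rps29 had 52.9, 65.1, 41.1 and 62.1 FPKM in PND4 libraries and 23.6, 38.1, 33.0 and 49.6 FPKM in PND1 libraries. PND4 replicate 3 fell inside the PND1 range. The difference was 0.63, with an interval from 0.14 to 1.12 (limma, unadjusted p = 0.0163, adjusted p = 0.752). The identical copy Gm14303 had 264, 259, 252 and 233 FPKM in PND4 libraries and 233, 196, 214 and 137 FPKM in PND1 libraries, and with all copies added the difference of Rps29 was 0.39 (limma, adjusted p = 0.714).

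Rps3, Rps25 and Rpl5 were also separated between the ages. Rps3, which lines the mRNA entry channel, had between 225 and 278 FPKM in PND4 libraries and between 199 and 218 FPKM in PND1 libraries, a difference of 0.25 (limma, adjusted p = 0.805). Its single matched copy held 1.96% of gene plus copy. For Rps25, used by several viral internal ribosome entry sites, the ranges were 159 to 187 FPKM at PND4 and 128 to 152 FPKM at PND1, a difference of 0.24 (limma, adjusted p = 0.805). Rpl5, which carries 5S ribosomal RNA and binds Mdm2 together with Rpl11, ranged over 191 to 238 FPKM at PND4 and 177 to 189 FPKM at PND1, a difference of 0.19 (limma, adjusted p = 0.805). Rpl35a and Rpl37, both of the large subunit, overlapped between ages but had an unadjusted p under 0.05. Rpl35a averaged 147 ± 15.1 FPKM in PND4 and 117 ± 15.6 FPKM in PND1 libraries, and Rpl37 averaged 65.1 ± 7.78 FPKM in PND4 and 51.6 ± 8.204 FPKM in PND1 libraries. Copies held 40.8% of gene plus copies for Rps25, 53.5% for Rpl5 and 47.7% for Rpl35a, and Rpl37 had no copy listed. With copies added, the difference was 0.23 for Rps25, 0.15 for Rpl5 and 0.28 for Rpl35a (0.34 on its own row). Among these genes Rpl5 and Rpl35a hold a searched pyrimidine motif within 20 bases of an annotated start, and Rps3, Rps25 and Rpl37 hold none. In Rpl5 no such motif lies wholly within 15 bases of the start.

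On the lower side no gene had an unadjusted p under 0.05. The 4 with the smallest p were Rpl10l, with a difference of -0.74, Rpl32l with -0.35, Rpl36 with -0.12 and Rpl6l with -0.11 (limma, adjusted p from 0.858 to 0.906). With 1 library left out these differences ranged from -1.22 to -0.36 for Rpl10l, from -0.57 to -0.086 for Rpl32l, from -0.19 to -0.021 for Rpl36 and from -0.17 to -0.041 for Rpl6l. With a pseudocount of 0.1 the difference of Rpl10l was -1.86, and with 5 it was -0.27. Of these only Rpl36 is a core gene, a large subunit protein, and it had 217, 297, 259.9 and 293 FPKM in PND4 libraries and 271, 300.2, 248 and 336 FPKM in PND1 libraries. The ages overlapped throughout. Rpl10l and Rpl32l were also, with Rps4l, the genes that varied most within an age. Rps4l had 35.7, 52.3, 34.7 and 49.8 FPKM in PND4 libraries and 11.6, 34.6, 38.8 and 50.01 FPKM in PND1 libraries. PND1 replicate 1 was the lowest and the other 7 libraries overlapped between the ages.

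Libraries of an age were closer for these genes than for most others. The median within-age SD of log2(FPKM + 1) was 0.15 for the 88 genes and 0.40 over all genes. The median 95% interval of the age difference reached 0.26 to either side for the 88 genes, against 0.65 for all genes. The 88 genes were also listed far higher, with a median of 194 FPKM against 9.64 FPKM, and the groups were not matched for level. Among other abundant genes, Eef1a1 had an interval from -0.14 to 0.29 and Eef2 from -0.16 to 0.24.

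Summed over the 88 genes, the level was 26916, 24295, 25558 and 26571 FPKM in PND4 libraries and 25147, 23186, 22905 and 24377 FPKM in PND1 libraries. The ages overlapped, with means of 25835 ± 1177 FPKM at PND4 and 23904 ± 1046 FPKM at PND1, a log2 ratio of 0.11. With median-of-ratios factors the log2 ratio was 0.035. As a share of all listed FPKM, ribosomal protein genes took 5.42%, 5.48%, 5.76% and 5.76% in PND4 libraries and 4.98%, 4.70%, 5.04% and 5.01% in PND1 libraries. By this share the ages did not overlap.

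Mitochondrially encoded and ribosomal-RNA-like entries took 28.4% ± 3.67 of listed FPKM in PND4 and 33.3% ± 3.01 in PND1 libraries, with overlapping ages. With those entries left out of the total, ribosomal protein genes took 7.84% ± 0.333 in PND4 and 7.41% ± 0.346 in PND1 libraries, and the ages overlapped. In PND4 libraries 65, 39, 58 and 71 of the 88 genes exceeded their own mean over all 8 libraries, and in PND1 libraries 43, 16, 17 and 41 did. PND4 replicate 2 thus lay within the range of the PND1 libraries, and PND1 replicates 2 and 3 were lowest.

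**Figure D5:**
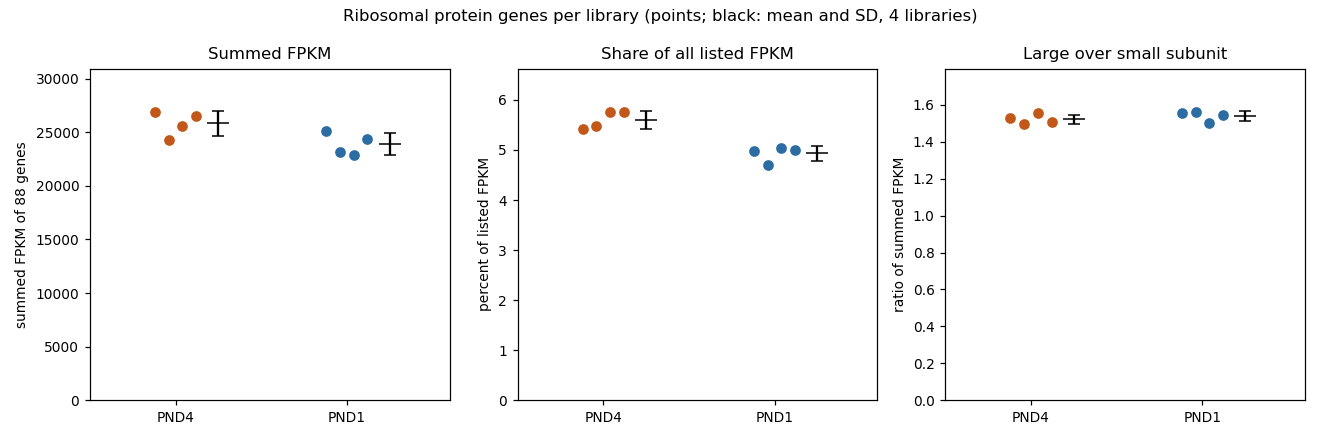
Summed FPKM of the 88 ribosomal protein genes (left), their share of all listed FPKM in percent (middle) and the ratio of summed large over small subunit FPKM (right) in the 4 PND4 libraries (orange) and the 4 PND1 libraries (blue), with mean and SD in black. The share does not overlap between ages, 5.42% to 5.76% at PND4 and 4.70% to 5.04% at PND1, while the sum and the ratio do.

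Genes that work with ribosomal proteins were examined from lists by role. Fau encodes the small subunit protein Rps30 fused to a relative of ubiquitin, and had 269 ± 45.6 FPKM in PND4 and 272 ± 31.6 FPKM in PND1 libraries. Rack1, a scaffold on the small subunit, had 205 ± 24.5 FPKM in PND4 and 174 ± 8.45 FPKM in PND1 libraries. All 17 translation factors and partners known for TOP messages had a difference above 0, against 60.3% of all genes, with a median of 0.13. None was called (limma), and 3 were higher at an unadjusted p under 0.05, against 4.06% of all genes. With median-of-ratios factors 12 of 17 were above 0, against 51.2% of all genes, the median was 0.053, and 0 had an unadjusted p under 0.05. The elongation factors Eef1a1 and Eef2 were the highest, with 3140.2 ± 196 and 977 ± 70.6 FPKM in PND4 libraries and 2985 ± 219 and 950.0 ± 28.9 FPKM in PND1 libraries.

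Ribosome biogenesis factors, which process ribosomal RNA and assemble the subunits, leaned the same way with a larger median than the ribosomal protein genes. Of 76 tested, 67 had a difference above 0, against 60.3% of all genes, the median was 0.23, and 0 were called. At an unadjusted p under 0.05 (limma), 11 were higher, against 4.06% of all genes, and 0 lower, against 1.84%. With median-of-ratios factors 63 were above 0, against 51.2% of all genes, and the median was 0.16. Under these factors 3 had an unadjusted p under 0.05 in the higher direction, against 2.24% of all genes. Over libraries left out in turn, between 5 (without PND1 replicate 2) and 18 (without PND4 replicate 1) had one, and 6 did without PND4 replicate 2 or 4. Npm1, nucleophosmin, had 407 ± 33.9 FPKM in PND4 and 342 ± 38.5 FPKM in PND1 libraries (limma, adjusted p = 0.805). Fbl, the methyltransferase fibrillarin, had 129.9 ± 12.4 FPKM in PND4 and 119 ± 22.6 FPKM in PND1 libraries (limma, adjusted p = 0.873). Nop2, a methyltransferase of large subunit ribosomal RNA named after its values were seen, had 46.9, 54.6, 50.5 and 50.8 FPKM in PND4 libraries and 32.5, 38.5, 40.0 and 39.0 FPKM in PND1 libraries, without overlap (limma, adjusted p = 0.740).

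Of 14 genes of RNA polymerase I and its factors, which transcribe ribosomal RNA, 12 had a difference above 0, against 60.3% of all genes, with a median of 0.20, and 0 were called. With median-of-ratios factors 10 of 14 were above 0, against 51.2% of all genes, and the median was 0.13. It was 0.12 with upper-quartile factors and 0.11 without PND1 replicate 1. Rrn3, an initiation factor, had 36.0 ± 5.14 FPKM in PND4 and 35.1 ± 3.93 FPKM in PND1 libraries, and Polr1d, a shared subunit, had 29.6 ± 6.30 FPKM in PND4 and 23.7 ± 1.05 FPKM in PND1 libraries. Of 13 regulators of ribosomal protein synthesis, 7 were above 0, against 60.3% of all genes, with a median of 0.059, and 0 were called. This median was -0.016 with median-of-ratios and -0.023 with upper-quartile factors, and ranged from -0.092 without PND4 replicate 3 to 0.22 without PND4 replicate 1. Akt1, a kinase upstream of mTOR, had 139 ± 19.5 FPKM in PND4 and 130.1 ± 4.22 FPKM in PND1 libraries. Eif4ebp1, a translation repressor that mTOR inhibits, had 96.5 ± 14.4 FPKM in PND4 and 76.2 ± 11.9 FPKM in PND1 libraries (limma, adjusted p = 0.805).

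Markers of other cells were read beside these results. Oocyte markers, 12 of 14 listed (all but Bmp15 and Oosp1), summed to between 48.3 and 296 FPKM in PND4 libraries, with PND4 replicate 3 highest, and to between 19.8 and 86.2 FPKM in PND1 libraries. The highest were Padi6, Zp3 and Zp2. The list was split: Figla, Nobox, Dazl, Kit and Sycp3 had lower means at PND4, and the other listed oocyte markers had higher means. Sycp3 averaged 3.45 FPKM at PND4 and 6.95 FPKM at PND1, and Padi6 averaged 37.6 and 8.90 FPKM. Without PND4 replicate 3 the median difference of the ribosomal protein genes was 0.11. Stromal markers, 9 of 9 listed, summed to between 195 and 258 FPKM in PND4 and between 178 and 202 FPKM in PND1 libraries. Erythroid markers, 3 of 7 listed, summed to between 0.268 and 11.4 FPKM in PND4 libraries and between 17.1 and 48.9 FPKM in PND1 libraries, without overlap. Immune markers, 4 of 10 listed and Ptprc not among them, ranged over 2.92 to 57.1 FPKM in PND4 and 8.82 to 28.3 FPKM in PND1 libraries, and none of 7 endothelial markers was listed. Surface epithelium markers, 6 of 6 listed, summed to 222 ± 63.8 FPKM in PND4 and 188 ± 69.3 FPKM in PND1 libraries, and theca markers, 2 of 5 listed, to 4.504 ± 1.62 FPKM in PND4 and 8.74 ± 3.61 FPKM in PND1 libraries. The part of these cells in the ribosomal protein levels was not tested.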

How the data were processed

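Granulosa cell RNA was extracted with a column kit and sequenced from standard Illumina libraries, per the labels' protocols. Trimming used Trim Galore and alignment used HISAT2 with GRCm38, per the submitters' processing notes. The authors deposited FPKM values per gene and library, per the file headers, as a filtered table. Its filter, annotation, strand use and handling of multiply mapping reads are not stated in these sources. A second deposited table holds, per the file headers, each gene's p-value and q-value beside a fold (a ratio, PND1 over PND4) and the log2 of that fold. Counts of genes under a threshold and the lowest q-value were taken from it.

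FPKM were taken as log2(FPKM + 1). A gene was tested if 4 or more libraries reached 1 FPKM, which held for 10756 of 11783 genes and left out 1027. Ages were compared as PND4 minus PND1 in R 4.3.3 by limma 3.58.1 without a block, with a prior variance that follows the mean level and Benjamini-Hochberg adjustment at a threshold of 0.05. A count test could not be used, since the table holds no counts. Shares of paralogs were compared by exact permutation. Pseudogene rows were matched to ribosomal protein transcripts with BLASTN 2.17.0, and positions and coding sequences came from GENCODE M21, in which 11774 gene identifiers were found. Figures were drawn with matplotlib 3.10.9.

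The genes, lists, pairs and tests were chosen with earlier results of these data known. Named genes were the 6 highest and 4 lowest of each subunit, members of pairs, the 4 smallest p in each direction, the 3 most variable within an age, up to 4 whose ages did not overlap, and the 2 highest of each list, besides Fau and Rack1. Values of some genes are not reported here. Alternatives were median-of-ratios and upper-quartile scaling, a rescaling that left out mitochondrial and ribosomal-RNA-like entries, pseudocounts of 0.1 and 5, no filter, a filter of 5 FPKM, the replicate number as a block, each library left out, medians in place of sums, and the log2 ratio of paralog over partner. Adding copies to their gene was chosen after seeing the data.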

Additional observations from a re-analysis of the deposited data

Results flagged for a closer look

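Within each age, the 4 libraries of a named gene, a summed level or a share were searched for 1 library far from the other 3, in 82 groups of 4 libraries. Chance alone picks out about 1 in 20 such groups, and 2 were picked out. The share of Rpl7l1 in its pair with Rpl7 was 9.33% in PND4 replicate 3, far below the other PND4 libraries, which lay between 13.5% and 13.9%. Rpl6l had 33.4 FPKM in PND1 replicate 2, below the other PND1 libraries, which lay between 37.3 and 38.1 FPKM.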

How the results depend on the processing

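Of 368 values recomputed under an alternative, 356 kept their direction and their side of the threshold or moved by less than the spread between libraries. The median difference of the ribosomal protein genes was 0.038 with median-of-ratios and 0.029 with upper-quartile scaling, against 0.12 as deposited, and the log2 ratio of their sum was 0.035 and 0.024 under these scalings, against 0.11. These moves follow from the scaling factors. With copies added, the difference of Rpl41 was -0.047, against 0.28. Over libraries left out in turn, calls among all genes ranged from 0 to 1 and were 0 when any 1 of the 4 PND1 libraries was left out, and calls among the ribosomal protein genes stayed at 0. The median difference ranged from 0.096 to 0.15, the log2 ratio of the sum from 0.092 to 0.14, the age difference in the share of Rps4l from -0.784 to 0.962 percentage points and that of Rpl22l1 from -1.01 to 4.85. The age difference in share ranged from 0.737 to 6.31 percentage points for Rpl36al (4.28 with all libraries), with the lowest without PND1 replicate 1. It ranged from 0.621 to 4.34 for Rps27l (2.53), from 1.27 to 2.81 for Rpl7l1 (1.72) and from -0.865 to -0.157 for Rpl10l (-0.552). Rps4l changed sign without PND1 replicate 1 and, at -0.190, without PND4 replicate 2, and Rpl22l1 without PND1 replicate 4. The cause was not tested.

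Libraries with the same replicate number did not deviate together: their correlations lay between -0.0088 and 0.12, 1 of 4 was above 0.1, and 2 of 8 libraries correlated best with their own number. With the replicate number as a block, 0 ribosomal protein genes and 1 gene overall were called, as without it, and 8 against 9 of the 88 had an unadjusted p under 0.05. Read depth is unknown, so counting error could not be separated from the spread between libraries, and reads shared with near-identical copies limit every level given.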
